A study of Mus musculus with 6 samples.

Results

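The genes described here are 30 of the genes of cholesterol and fatty acid synthesis that are under the control of the SREBP transcription factors, out of 18193 measured. The rule lists them by name and uses no measured value, but the list was drawn up with earlier results of these data known. All 30 had a probe set that the array annotation assigned to them alone. Where a gene had several such probe sets, the one with the highest mean over all 6 arrays was taken. By role, 17 were enzymes of sterol synthesis, 4 were regulators or sterol carriers and 9 made or modified fatty acids. The RNA came from neonatal tail tip fibroblasts of mice backcrossed to C57BL6, from 3 *Hotair* wildtype and 3 *Hotair* knockout samples, each on its own whole-genome expression array. *Hotair* is a long noncoding RNA gene of the Hoxc cluster, and no other allele or treatment was named for either genotype. Nothing in the labels ties a replicate to its own animal or culture. The p-values therefore reflect only how much these samples scatter, and that scatter may be technical. Values are log2 units from RMA, a method that removes background, equalises the arrays and combines the probes of a set, so a difference of 1 means a doubling of signal.

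SREBP proteins are held in the membrane of the endoplasmic reticulum. When sterols run low, the escort protein Scap carries them to the Golgi apparatus, where proteases release a fragment that enters the nucleus and raises transcription of the genes for sterol and fatty acid synthesis. The isoform from *Srebf2* acts mostly on sterol genes and those from *Srebf1* more on fatty acid genes. Dividing fibroblasts in culture need sterols and unsaturated lipids for new membrane.

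The arrays differed in ways that genotype did not explain. A principal component with 48.9% of the variance placed replicate 1 of both genotypes at −114.7 and −82.7 and the 4 other arrays between 39.3 and 74.7. On these replicate 1 arrays the median of 17 proliferation markers, relative to each gene's own mean, was −1.59 for the wild type and −1.38 for the knockout, while the others ran from 0.51 to 1.05. Knockout replicate 1 also had the widest gap between 3′ and 5′ control probes, which widens as RNA degrades, at 0.63 for *Actb* and 0.75 for *Gapdh* against at most 0.21 and −0.03 elsewhere. The fibroblast label was checked on 10 markers. *Col1a2*, *Col3a1*, *S100a4* and *Vim* measured from 13.67 to 14.83 over all arrays, whereas *Thy1* was 12.15, 4.65 and 7.17 on the wild-type arrays and 11.71, 10.54 and 10.28 on those of the knockout. On the 4 arrays left without replicate 1, 4 of the 10 fibroblast markers (*Col3a1*, *Dcn*, *Lum* and *Thy1*, named after their values were seen) were called higher in knockout, and the part of this in the results was not tested. Of the markers of 5 other cell types, 0 of 6 keratinocyte genes were called, 1 of 8 leukocyte (*Cd14*), 1 of 6 endothelial (*Flt1*) and 1 of 6 muscle genes (*Acta1*) were lower, and 1 of 6 measured melanocyte and glia genes (*Mitf*) was higher. Over 6 arrays, 6 of the 8 leukocyte genes had a difference above 0. Relative to each gene's own mean, their median was 0.31 on wild-type and 0.57 on knockout replicate 1, and −0.24 to −0.20 elsewhere. The part of such cells in the results was not tested. No probe set was named for *Hotair*, so the knockout itself could not be read from the arrays. Because replicate 1 stood apart, results are given for all 6 arrays and for the 4 arrays of replicates 2 and 3, a second comparison chosen with that already known.

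Over all 6 arrays no gene of the 30 passed the test between genotypes. Most lay above 0 all the same, 27 of 30 against 51.1% of all genes, with a median difference (knockout minus wild type) of 0.41 against 0.01. By limma, 0 of 30 and 0 of 18193 genes (0%) had an adjusted p under 0.05, and the smallest was 0.743. At an unadjusted p under 0.05 there were 2 of 30, *Hsd17b7* and *Scd1*, both higher in knockout, where 4.01% of all genes were higher and 2.67% lower. With the replicate number as a block the adjusted count stayed 0, and the unadjusted count was 6 of 30, all higher (*Hmgcs1*, *Idi1*, *Hsd17b7*, *Stard4*, *Elovl6* and *Scd1*), against 6.86% of all genes. On their chosen probe sets *Hsd17b7* and *Scd1* were also the 2 genes with all knockout values above all wild-type values, against 5.56% of all genes. Their other probe sets overlapped between genotypes. All knockout values were below in 0 of 30, against 4.38%. With a weight given to each array, 5 of 30 were called higher, against 6.7% of all genes. Replicate 1 counted least there, with a wild-type weight of 0.24 and a knockout weight of 0.33, and every other array had at least 1.04. That fit therefore rested mostly on replicates 2 and 3 and was not separate from the comparison without replicate 1.

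In replicates 2 and 3 alone, 13 of the 30 genes were called higher in knockout and 0 lower. They were 8 sterol enzymes (*Pmvk*, *Idi1*, *Fdps*, *Fdft1*, *Sqle*, *Cyp51*, *Hsd17b7* and *Dhcr7*), the regulator *Srebf2*, the sterol carrier *Stard4*, and the fatty acid enzymes *Elovl6*, *Scd1* and *Fads1*. Among all genes, limma called 7.56% higher and 6.41% lower on the same 4 arrays. The median difference was 0.75 for the 30 genes and 0.04 for all genes. In 25 of 30 both knockout arrays lay above both wild-type arrays, against 31.6% of all genes. Each group held 2 arrays, and without knockout replicate 2 or without knockout replicate 3 the count was 0, of the 30 and of all genes, with a smallest limma adjusted p among the 30 of 0.107 and 0.129. The count was 11 with the replicate number as a block and 6 when p-values were adjusted over all probe sets. In bulk RNA, fewer cells of a kind and less RNA per cell cannot be told apart.

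**Figure D1:**
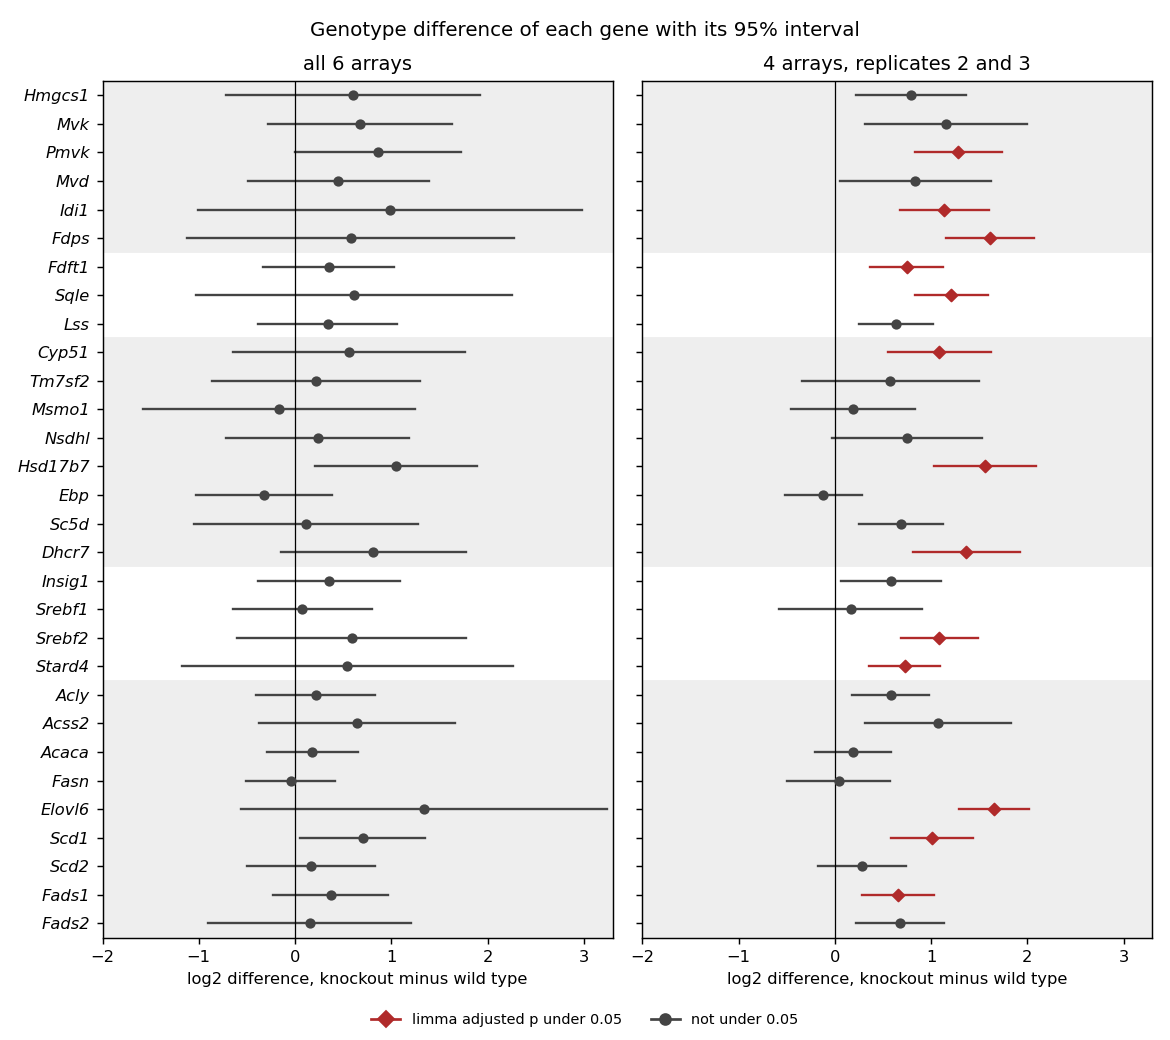
Difference between genotypes on the log2 scale (x axis, knockout minus wild type) for each of the 30 genes (y axis, shaded by role), with the 95% interval of the limma fit. On all 6 arrays (left) no gene had an adjusted p under 0.05, while on the 4 arrays of replicates 2 and 3 (right) 13 genes did, shown as red diamonds, and all 13 were higher in knockout.

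The start sites of these genes are shown here because many of the genes were high on the same arrays, and because SREBPs act on promoters together with NF-Y, a factor that binds the CCAAT box. The RefSeq (GRCm38.p6) promoters used here held 28 start sites for 23 of the 30 genes. The 7 without one were *Fdps*, *Fdft1*, *Sqle*, *Stard4*, *Scd1*, *Scd2* and *Fads1*. They were not searched, and all of them but *Scd2* were among the 13 genes called in replicates 2 and 3. The 250 bases before each were searched on both strands for CCAAT, for TCACNCCAC, a form of the sterol regulatory element, and for CACGTG, an E-box. Capitals below mark these letters on either strand (CCAAT reads ATTGG on the other), and no matches to different motifs overlapped. *Hmgcs1*, the entry to the pathway, is shown for its sterol element. *Idi1*, *Cyp51* and *Hsd17b7* stand for the sterol enzymes called in replicates 2 and 3, and *Elovl6* for the fatty acid genes, as the largest difference of all 30. Their windows lie at chr13:119690101-119690350, plus strand (*Hmgcs1*), chr13:8885356-8885605, plus strand (*Idi1*), chr5:4104698-4104947, minus strand (*Cyp51*), chr1:169969206-169969455, minus strand (*Hsd17b7*) and chr3:129532136-129532385, plus strand (*Elovl6*).
Hmgcs1: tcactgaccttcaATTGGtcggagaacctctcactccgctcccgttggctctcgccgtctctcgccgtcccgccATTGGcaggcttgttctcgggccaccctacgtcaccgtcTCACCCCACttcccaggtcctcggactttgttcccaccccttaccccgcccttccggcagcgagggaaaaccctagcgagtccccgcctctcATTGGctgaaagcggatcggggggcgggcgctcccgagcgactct
Idi1: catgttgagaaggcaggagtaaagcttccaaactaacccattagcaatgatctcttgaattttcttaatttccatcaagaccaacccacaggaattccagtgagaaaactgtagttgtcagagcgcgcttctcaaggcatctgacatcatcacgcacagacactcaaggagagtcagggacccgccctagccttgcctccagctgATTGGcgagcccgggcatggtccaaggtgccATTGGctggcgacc
Cyp51: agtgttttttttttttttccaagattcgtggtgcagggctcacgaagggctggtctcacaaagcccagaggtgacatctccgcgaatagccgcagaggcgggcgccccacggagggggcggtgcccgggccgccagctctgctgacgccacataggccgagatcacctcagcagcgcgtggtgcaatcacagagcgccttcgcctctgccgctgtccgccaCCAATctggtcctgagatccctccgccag
Hsd17b7: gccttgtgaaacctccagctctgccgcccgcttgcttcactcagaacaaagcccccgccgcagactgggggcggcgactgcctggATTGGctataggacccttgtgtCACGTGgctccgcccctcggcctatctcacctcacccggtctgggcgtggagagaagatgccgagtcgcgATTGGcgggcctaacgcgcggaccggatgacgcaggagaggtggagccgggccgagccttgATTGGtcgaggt
Elovl6: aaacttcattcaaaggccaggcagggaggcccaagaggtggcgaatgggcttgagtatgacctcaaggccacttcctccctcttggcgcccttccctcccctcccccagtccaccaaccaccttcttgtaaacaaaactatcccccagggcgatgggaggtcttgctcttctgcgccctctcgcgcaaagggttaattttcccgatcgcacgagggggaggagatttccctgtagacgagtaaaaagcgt

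A CCAAT box stood in at least 1 window of all 14 sterol enzyme genes that had one, and in 14 of their 17 windows (82.4%), against 33.8% of all 32851 windows in the table. *Mvk* held 5 matches, and *Hmgcs1*, *Hsd17b7* and *Msmo1* held 3 each among the sterol genes. Of the 6 fatty acid genes with a window, 2 held a CCAAT box, *Acss2* and *Fasn*, and *Elovl6* held none of the 3 motifs. Among the genes searched, the sterol element was found in the window of *Hmgcs1* alone, against 1.05% of all windows. An E-box was found for *Hsd17b7*, *Dhcr7*, *Sc5d* and *Insig1*, in 14.3% of the 28 windows against 6.02% of all. The genes with CCAAT boxes included ones with no call in either fit, such as *Msmo1* and *Ebp*. A missing match says only that these letters are not in this window.

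Among the early enzymes, which build mevalonate from acetyl-CoA and turn it into isoprenoids, all 6 had a difference above 0 and none passed over 6 arrays. *Pmvk*, phosphomevalonate kinase, measured 8.94, 8.96 and 8.70 on the wild-type arrays and 8.96, 10.00 and 10.23 on those of the knockout. The knockout array of replicate 1 sat with the wild-type arrays, and the other knockout arrays were above all of them. *Idi1*, which isomerises isopentenyl diphosphate, was 9.14, 11.13 and 10.76 on the wild-type arrays and 9.82, 12.04 and 12.13 on those of the knockout. Within each replicate number it was higher in knockout, by 0.69, 0.91 and 1.37, but replicate 1 was low in both genotypes, so that the groups overlapped. *Fdps*, farnesyl diphosphate synthase, measured 12.45, 11.82 and 11.54 on the wild-type arrays and 10.96, 13.17 and 13.40 on those of the knockout. Here knockout replicate 1 was the lowest array of all and knockout replicates 2 and 3 the highest. Without replicate 1 the differences were 1.28 ± 0.18 (SE) for *Pmvk* (limma adjusted p = 0.0149), 1.14 ± 0.18 for *Idi1* (0.0208) and 1.61 ± 0.18 for *Fdps* (0.0103). The last is 3.06-fold, against 0.58 ± 0.69 over 6 arrays.

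The 3 other early enzymes were not called on either set of arrays. *Hmgcs1*, the cytosolic HMG-CoA synthase, was 11.17, 12.44 and 11.87 on the wild-type arrays and 11.40, 12.99 and 12.91 on those of the knockout, lower on replicate 1 of both genotypes than on their other arrays. Its difference was 0.60 ± 0.54 (SE) over 6 arrays and 0.79 ± 0.23 over 4, with a limma adjusted p of 0.0835 for the latter. *Mvk*, mevalonate kinase, differed by −0.29, 0.52 and 1.79 in replicates 1, 2 and 3. *Mvd*, which makes isopentenyl diphosphate, differed by −0.33, 0.22 and 1.46. For both genes the sign in replicate 1 was opposite to that in the other pairs.

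**Figure D2:**
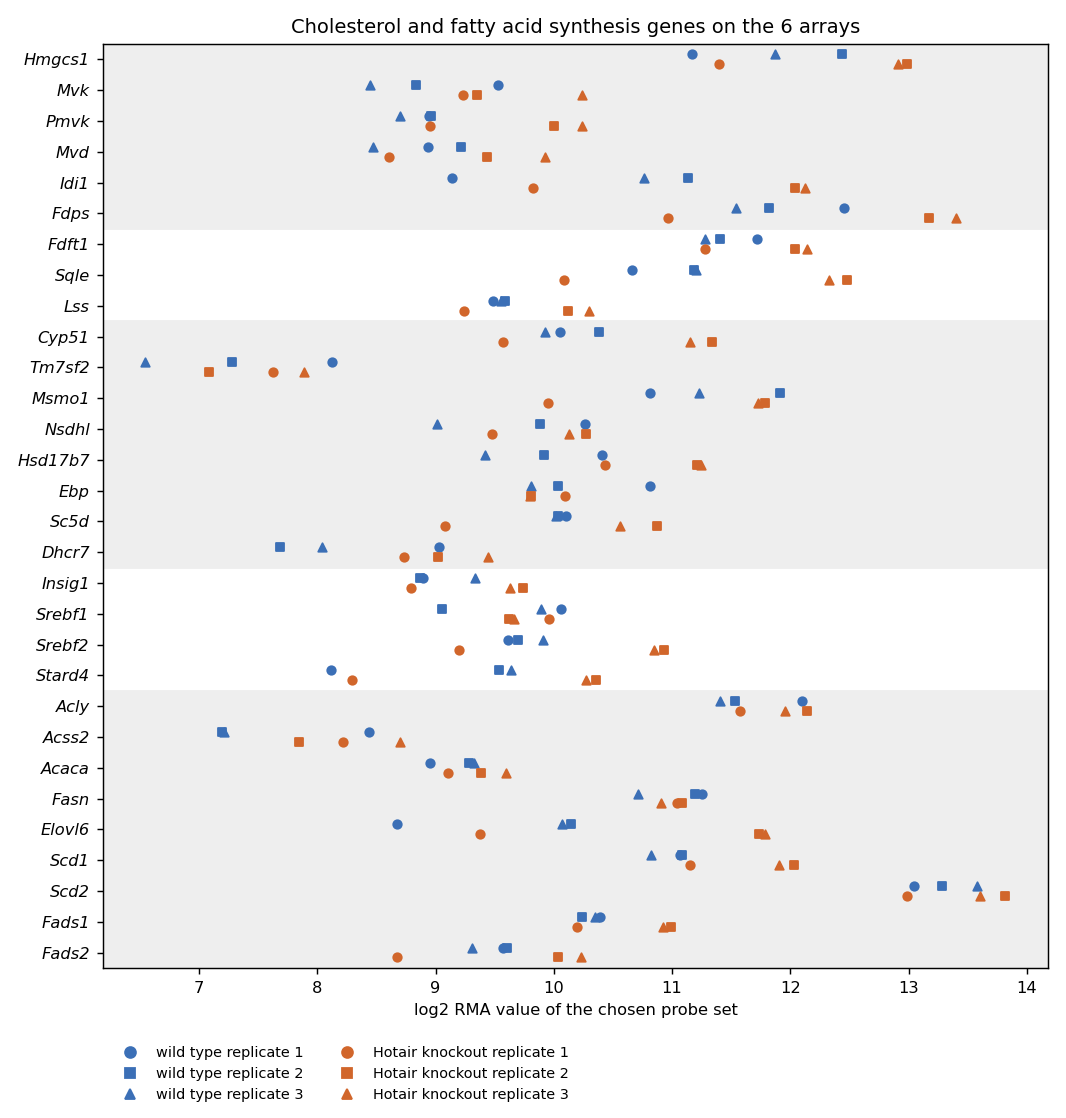
Log2 RMA value (x axis) of each of the 30 genes (y axis, shaded by role) on each array, in blue for wild type and orange for *Hotair* knockout, with replicates 1, 2 and 3 as circles, squares and triangles. For *Sqle*, *Cyp51*, *Srebf2* and *Elovl6* the orange squares and triangles lie to the right of every blue symbol, while the orange circle lies among or below them.

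The enzymes that commit isoprenoids to sterols also had replicates 2 and 3 higher in knockout. *Sqle*, squalene epoxidase, a tightly regulated oxygen-requiring step, measured 10.66, 11.18 and 11.21 on the wild-type arrays and 10.08, 12.48 and 12.33 on those of the knockout. Knockout replicate 1 was the lowest of the 6 arrays and the other knockout arrays were the highest. *Fdft1*, squalene synthase, was 11.72, 11.41 and 11.28 on the wild-type arrays and 11.28, 12.04 and 12.14 on those of the knockout, and its knockout replicate 1 lay level with the lowest wild-type array. Without replicate 1 limma gave 1.21 ± 0.15 (SE, adjusted p = 0.0118) for *Sqle* and 0.75 ± 0.15 (0.0343) for *Fdft1*. The *Fdft1* probe set is of a kind whose probes can match other transcripts. Of the gene's 4 probe sets 3 were higher over 6 arrays, with a range of −0.05 to 0.35. With the mean of probe sets *Fdft1* was not called on the 4 arrays. *Lss*, which closes the ring to give lanosterol, differed by 0.63 ± 0.15 with an adjusted p of 0.0535 and was not called. Its wild-type arrays lay close together, at 9.49, 9.59 and 9.56, against 9.24, 10.12 and 10.30 in knockout. All 3 genes had a negative difference in replicate 1, at −0.58 for *Sqle*, −0.44 for *Fdft1* and −0.25 for *Lss*.

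The late enzymes, from lanosterol to cholesterol, had differences of both signs over 6 arrays, and 3 of 8 were called without replicate 1. *Hsd17b7*, a 3-ketosteroid reductase, had the largest 6-array difference of the sterol enzymes. It measured 10.41, 9.92 and 9.42 on the wild-type arrays and 10.43, 11.21 and 11.25 on those of the knockout. The lowest knockout array stood just above the highest wild-type array, so the groups did not overlap. The difference was 1.05 ± 0.34 (SE, limma adjusted p = 0.743), and 1.56 ± 0.21 (0.0138) without replicate 1. This probe set is of a kind whose probes can match other transcripts, and all 4 probe sets of the gene were higher in knockout, by 0.45 to 1.05. On each of the others knockout replicate 1 lay below wild-type replicate 1, and the groups overlapped.

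*Cyp51*, lanosterol demethylase, was 10.05, 10.39 and 9.92 on the wild-type arrays and 9.57, 11.34 and 11.15 on those of the knockout, with knockout replicate 1 below every wild-type array. *Dhcr7*, the reductase of the last step, measured 9.03, 7.68 and 8.04 on the wild-type arrays and 8.73, 9.02 and 9.44 on those of the knockout. In wild type its replicate 1 was the highest array, so that there the difference was negative. Without replicate 1 limma gave 1.09 ± 0.21 (SE, adjusted p = 0.031) for *Cyp51* and 1.37 ± 0.22 (0.0209) for *Dhcr7*. On 6 arrays these were 0.56 ± 0.49 and 0.81 ± 0.39.

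*Sc5d*, the sterol C5 desaturase, was 10.11, 10.04 and 10.02 on the wild-type arrays and 9.08, 10.87 and 10.56 on those of the knockout, tight in wild type and spread in knockout. Its 4-array difference of 0.69 ± 0.17 (SE) had a limma adjusted p of 0.0585 and was not called. *Nsdhl*, a dehydrogenase of sterol demethylation, and *Tm7sf2*, a C14 reductase, differed by −0.79, 0.39 and 1.11 and by −0.50, −0.19 and 1.34 in replicates 1, 2 and 3. Both genes had differences of either sign, and neither was called.

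The exceptions among the late enzymes were *Ebp* and *Msmo1*. *Ebp*, the sterol isomerase, was 10.81, 10.04 and 9.81 on the wild-type arrays and 10.09, 9.81 and 9.80 on those of the knockout, with a negative difference in every replicate number, at −0.72, −0.23 and −0.01. The 4-array difference was −0.12 ± 0.16 (SE), with a 95% interval of −0.52 to 0.28. For *Hsd17b7* and *Dhcr7*, late enzymes that were called, it was 1.03 to 2.09 and 0.81 to 1.93. A difference between these genes was not tested. *Msmo1*, the C4 methyl oxidase, measured 10.81, 11.91 and 11.23 on the wild-type arrays and 9.95, 11.78 and 11.73 on those of the knockout. It differed by −0.16 ± 0.57 over 6 arrays and 0.19 ± 0.25 over 4, and by −0.86, −0.13 and 0.50 in replicates 1, 2 and 3, so that its sign was not settled on either set.

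Of the regulators, *Srebf2* was called higher in replicates 2 and 3, and *Srebf1* was not called. *Srebf2*, itself an SREBP target, measured 9.61, 9.70 and 9.91 on the wild-type arrays and 9.20, 10.93 and 10.85 on those of the knockout. Knockout replicate 1 was the lowest array, the wild-type arrays lay close together, and the other knockout arrays stood above them. The difference without replicate 1 was 1.09 ± 0.16 (SE, limma adjusted p = 0.016), and both probe sets of the gene gave 0.59 over 6 arrays. *Srebf1* was 10.06, 9.06 and 9.89 on the wild-type arrays and 9.96, 9.62 and 9.66 on those of the knockout, with a 4-array difference of 0.17 ± 0.29 and a 95% interval of −0.58 to 0.91. Which isoforms of *Srebf1* its probe set reads was not examined, and the difference between the 2 genes was not tested.

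*Insig1*, which holds the Scap complex back in the endoplasmic reticulum, measured 8.89, 8.87 and 9.33 on the wild-type arrays and 8.80, 9.74 and 9.63 on those of the knockout and differed by 0.58 ± 0.21 (SE) without replicate 1 (limma adjusted p = 0.139). *Stard4*, a soluble sterol carrier, was 8.12, 9.53 and 9.64 on the wild-type arrays and 8.29, 10.35 and 10.27 on those of the knockout. Replicate 1 lay more than 1 unit below the other arrays of each genotype. Its 4-array difference was 0.72 ± 0.15 (0.0353), and its 3 probe sets were higher by 0.37 to 0.55 over 6 arrays.

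Of the 9 fatty acid genes, 3 were called without replicate 1, *Elovl6*, *Scd1* and *Fads1*. *Elovl6*, the elongase of palmitate, measured 8.68, 10.14 and 10.07 on the wild-type arrays and 9.38, 11.73 and 11.78 on those of the knockout. It was higher in knockout in each replicate number, by 0.70, 1.59 and 1.72, although replicate 1 was low in both genotypes. Its 6-array difference of 1.34 ± 0.77 (SE, limma adjusted p = 0.821) and its 4-array difference of 1.65 ± 0.14 (0.0065) were the largest of the 30. The latter is 3.14-fold. The 3 probe sets of *Elovl6* were higher by 0.40 to 1.34 over 6 arrays. With the mean of probe sets in place of the brightest, the gene was not called on the 4 arrays.

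*Scd1*, a stearoyl-CoA desaturase, was 11.07, 11.09 and 10.82 on the wild-type arrays and 11.15, 12.03 and 11.90 on those of the knockout. On this probe set all knockout arrays lay above all wild-type arrays, narrowly for knockout replicate 1 and widely for the others. The difference was 0.70 ± 0.26 (SE, limma adjusted p = 0.743) over 6 arrays and 1.01 ± 0.17 (0.0222) over 4, and a second probe set gave 1.40 over 6. On that second set the groups overlapped, with knockout replicate 1 at 7.84 against 8.23, 7.71 and 8.27 in wild type. Its paralogue *Scd2* was 13.05, 13.28 and 13.58 on the wild-type arrays and 12.98, 13.82 and 13.60 on those of the knockout, with overlapping groups and a 4-array interval of −0.18 to 0.74. *Fads1*, the delta-5 desaturase, measured 10.39, 10.24 and 10.35 on the wild-type arrays and 10.20, 10.99 and 10.92 on those of the knockout. Its knockout replicate 1 was just below the wild-type arrays, and the 4-array difference was 0.66 ± 0.15 (0.0452). *Fads2*, the delta-6 desaturase, differed by 0.68 ± 0.18, with an adjusted p of 0.0689.

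*Fasn*, fatty acid synthase, was 11.25, 11.19 and 10.71 on the wild-type arrays and 11.04, 11.08 and 10.91 on those of the knockout. *Acaca*, the acetyl-CoA carboxylase that supplies it with malonyl-CoA, was 8.95, 9.28 and 9.32 on the wild-type arrays and 9.11, 9.39 and 9.59 on those of the knockout. Over all arrays the genotypes overlapped for both genes. Without replicate 1 they still overlapped for *Fasn*, while the knockout values of *Acaca* lay above its wild-type values. *Acaca* was higher in knockout in replicates 1, 2 and 3, by 0.16, 0.10 and 0.27. Neither gene was called. The 4-array differences of *Fasn* and *Acaca* were 0.04 ± 0.21 and 0.19 ± 0.16 (SE), with 95% intervals of −0.49 to 0.58 and −0.21 to 0.58. The called genes *Elovl6* and *Scd1* had 4-array intervals of 1.29 to 2.02 and 0.59 to 1.44. A difference between these genes was not tested. *Acly* and *Acss2*, which supply acetyl-CoA from citrate and acetate, differed by 0.58 ± 0.16 and 1.07 ± 0.30, with limma adjusted p of 0.0728 and 0.0803. With the replicate block on these 4 arrays *Acss2* was called and *Fads1*, *Fdft1* and *Stard4* were not.

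Adipocyte markers were read beside the fatty acid genes. Of 8 markers 7 were measured, and without replicate 1 *Cebpa* was called higher and *Fabp4* lower (both named after their values were seen). The median of the list relative to each gene's mean ranged from −0.18 to 0.17 in wild type and from −0.03 to 0.20 in knockout. *Adipoq*, *Cidec* and *Lep* measured at most 4.77 on any array, and *Pparg* lay between 4.90 and 5.94. Other markers were brighter. *Fabp4* ran from 7.37 to 8.06 over the wild-type arrays and from 6.17 to 9.47 over those of the knockout. *Cebpa* ran from 5.35 to 6.64 and from 7.15 to 8.51 in the same order. *Lpl*, a lipase that other cells also make, was 5.74, 4.57 and 8.82 on the wild-type arrays and 7.82, 12.21 and 11.74 on those of the knockout. Whether adipocytes had a part in the result was not tested.

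Sterol and fatty acid genes can be set side by side by step. The median 6-array difference was 0.64 for the 6 early enzymes, 0.35 for the 3 squalene and lanosterol enzymes, 0.23 for the 8 late enzymes, 0.45 for the 4 regulators and 0.21 for the 9 fatty acid genes. Without replicate 1 the medians were 1.15, 0.75, 0.72, 0.65 and 0.66 in the same order. The calls on those 4 arrays were 3 of 6, 2 of 3, 3 of 8, 2 of 4 and 3 of 9, all higher, where 7.56% of all genes were called higher, and each count was 0 without knockout replicate 2 or without knockout replicate 3. All 17 sterol enzymes together had medians of 0.56 and 0.84. A difference between the sterol and the fatty acid genes was not tested.

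The differences also varied by replicate number. In replicate 1, 22 of the 30 genes were lower in knockout, with medians of −0.14, −0.44 and −0.61 along the sterol pathway, −0.10 for the regulators and −0.20 for fatty acid genes. In replicate 2, 26 of 30 were higher, with medians of 0.73, 0.63, 0.61, 0.85 and 0.61. In replicate 3, 28 of 30 were higher, with medians of 1.49, 0.87, 1.17, 0.46 and 0.57. Of all 18193 genes, 9785 were lower in replicate 1, and 8759 and 10965 were higher in replicates 2 and 3. For all genes the medians were −0.03, −0.01 and 0.10. In 17 of 30 genes the knockout was higher in replicates 2 and 3 and lower in replicate 1, against 20.2% of all genes. In 8 of 30 it was higher in all 3, against 17.1%. The difference between replicate numbers was not tested, since each has 1 array per genotype.

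**Figure D3:**
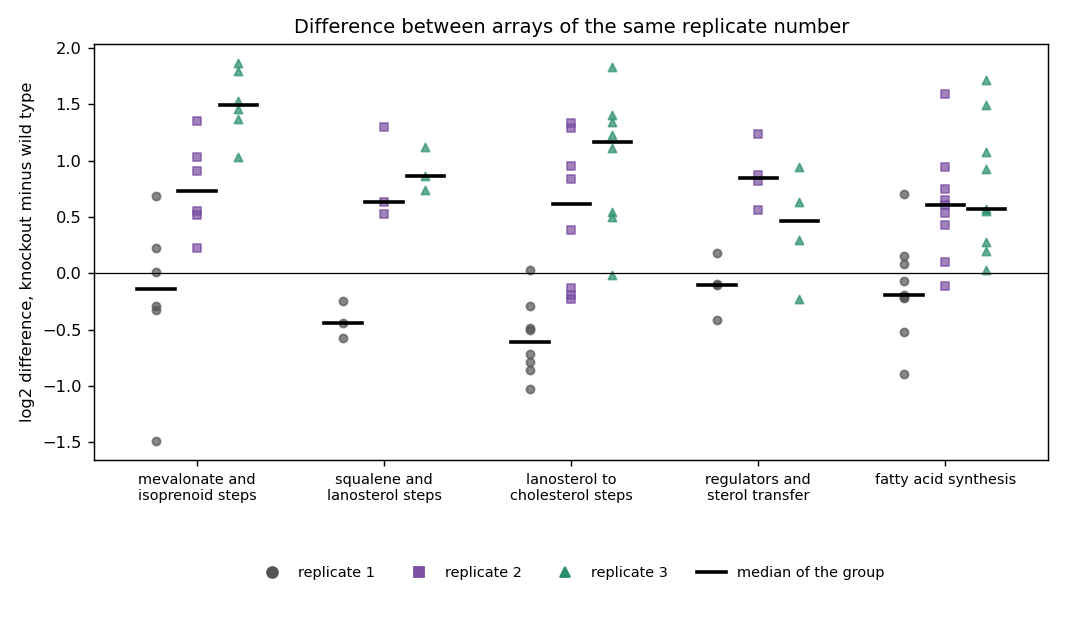
Log2 difference between the knockout and the wild-type array of the same replicate number (y axis) for each gene, grouped by role (x axis), with circles, squares and triangles for replicates 1, 2 and 3 and a black bar at the median of each group. The replicate 1 medians lie between −0.61 and −0.10 and those of replicates 2 and 3 between 0.46 and 1.49.

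The same contrast can be read within each genotype. In knockout, 26 of 30 genes were higher in replicates 2 and 3 than in replicate 1, with a median of 0.85. In wild type 12 of 30 were, with a median of −0.11. Of all 18193 genes, 8229 were higher in knockout and 6159 in wild type by the same contrast, with medians of −0.04 and −0.17. Proliferation markers stood above replicate 1 in both genotypes, 17 of 17 in each, by a median of 2.46 in wild type and 2.24 in knockout. Knockout replicates 2 and 3 had high proliferation markers and high sterol genes, while wild-type replicates 2 and 3 had high proliferation markers and sterol gene medians of −0.12 and −0.48. Between the genotypes without replicate 1, 3 of the 17 proliferation markers were called higher, *Mcm3*, *Mcm6* and *Mcm7* (named after their values were seen), with a list median of 0.32. The part of proliferation, or of the RNA quality of knockout replicate 1, in these differences was not tested.

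**Figure D4:**
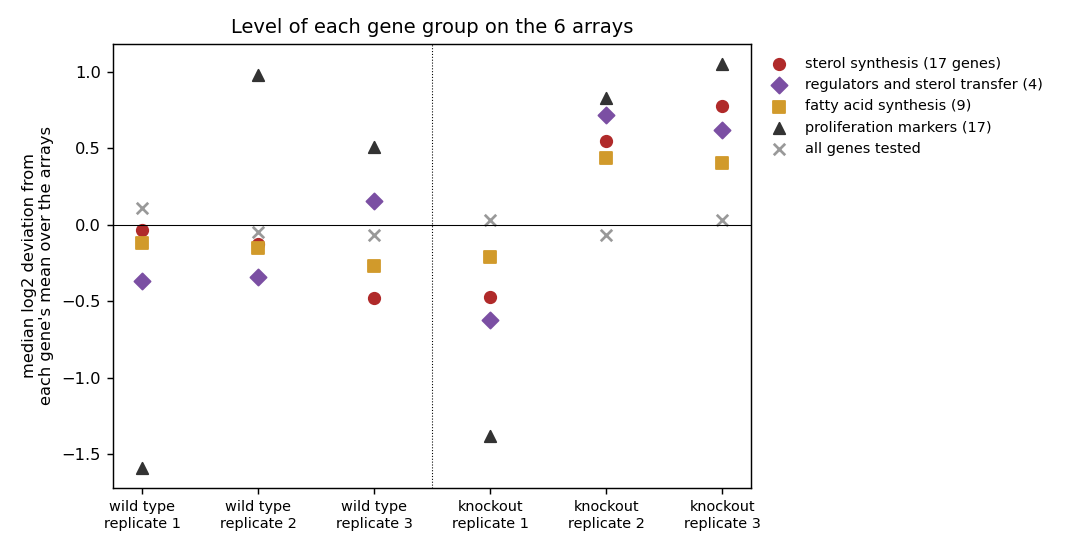
Median log2 deviation from each gene's own mean (y axis) on each array (x axis) for sterol synthesis genes, regulators, fatty acid genes, proliferation markers and all genes tested. Proliferation markers are low on replicate 1 of both genotypes, at −1.59 and −1.38, while the sterol genes reach 0.55 and 0.78 only on knockout replicates 2 and 3.

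Other genes around the pathway did not pass over 6 arrays, and those called without replicate 1 went in both directions. The counts in these lists are small, and 7.56% of all genes were called higher and 6.41% lower on the same 4 arrays. Of 5 measured genes that process or degrade SREBP, 1 was called lower on the 4 arrays, *Mbtps2*, the site-2 protease that frees the active fragment. It measured 8.65, 9.74 and 9.69 on the wild-type arrays and 9.40, 8.77 and 8.67 on those of the knockout, and the wild-type and knockout arrays of replicates 2 and 3 did not overlap. Its difference was −0.996 ± 0.15 (SE, limma adjusted p = 0.0164), opposite in sign to replicate 1. *Insig2* and *Rnf139*, a ubiquitin ligase of the endoplasmic reticulum, had the smallest p in each direction over 6 arrays, at −0.48 ± 0.29 and 0.45 ± 0.37.

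None of 6 genes of sterol uptake and trafficking was called on either set. *Npc2*, which hands cholesterol out of lysosomes, had the smallest p on the lower side (−0.42 ± 0.26 over 6 arrays) and *Scarb1*, a lipoprotein receptor, on the higher side (0.41 ± 0.18). Among 5 measured genes of the LXR response, which counters sterol excess, *Mylip* was called higher without replicate 1 (1.31 ± 0.25, SE, limma adjusted p = 0.0289). *Abca1*, the cholesterol exporter, was at 1.44 ± 0.73 and *Nr1h3*, which encodes an LXR, at −0.22 ± 0.21 over 6 arrays. Of 2 further genes of sterol and isoprenoid synthesis measured, neither was called, and *Ggps1*, which makes geranylgeranyl diphosphate, was at 0.27 ± 0.17.

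Of 15 other lipogenic genes, 1 was called higher and 2 lower without replicate 1, numbers near the shares of 7.56% and 6.41% over all genes. *Acsl3*, an acyl-CoA synthetase of lipid droplets, was 7.49, 8.49 and 8.65 on the wild-type arrays and 7.41, 10.10 and 9.90 on those of the knockout and differed by 1.43 ± 0.16 (SE, limma adjusted p = 0.0103). *Acsl4*, which prefers arachidonate, and *Lpin1*, a phosphatidate phosphatase, differed by −0.93 ± 0.15 (0.0224) and −1.27 ± 0.24 (0.031). *Elovl5* had the smallest p on the higher side over 6 arrays, at 0.24 ± 0.17. For fatty acid oxidation, 1 of 9 genes was called lower, *Cpt2*, a carnitine palmitoyltransferase, at −0.80 ± 0.18 (0.0441), and none higher. Over 6 arrays *Acadm* (0.48) and *Acadvl* (−0.48) had the smallest p in each direction. The median of the oxidation list without replicate 1 was 0.13 and that of the lipogenic list 0.05, against 0.66 for the fatty acid synthesis genes.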

How the data were processed

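Per the submitters' processing notes, the authors normalized the arrays with RMA in R 2.11.1; the deposited values are log2 signal per probe set, and the annotation of the array is GEO's. Of 45101 probe sets, 64 controls were left out; 34945 others named a single gene, 932 several and 9160 none. Gene identifiers were matched to RefSeq (GRCm38.p6) for 99.4%. The brightest probe set assigned to a gene alone stood for it, giving 18193 genes. The comparison of genotypes used lmFit and eBayes of limma 3.58.1 (R 4.3.3), two-sided, with Benjamini-Hochberg adjustment over all genes and calls at 0.05, on 6 arrays and, as a second comparison, on the 4 arrays of replicates 2 and 3. Precision is limited by how few arrays there are: with 3 against 3, the smallest p of an exact permutation test is 0.1. With 2 against 2 that limit is larger still, and the 4-array calls rely on the variance that limma shares across all genes. The scripts were tested on simulated data. Deviations of same-numbered arrays correlated at 0.51, 0.39 and 0.35, so the block is given beside results it changes, while both comparisons reported were fitted without it, since the series' design states no pairing. Wild-type replicate 3 correlated best with knockout replicate 2 (0.43), and replicate 1 stands apart in both genotypes. The alternatives were a replicate block, each array left out, array weights, a term for replicate 1, other scalings, other probe set rules, a filter on dim genes and a robust prior. Promoters are the 250 bases before RefSeq start sites. All 30 genes are named, and of each related list the gene with the smallest p in each direction and any called. The 30 genes, the lists and the second comparison were chosen with earlier results of these data known.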

Additional observations from a re-analysis of the deposited data

How the results depend on the processing

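Over 6 arrays the count of called genes among the 30 was 0 in the comparison of genotypes and stayed 0 without each replicate in turn (range 0 to 0), with the replicate block (smallest limma adjusted p = 0.424), with a term for replicate 1, and under every scaling, probe set rule and filter tried. It was 13 when replicate 1 of both genotypes was left out and 5 with array weights (*Dhcr7*, *Fads1*, *Hsd17b7*, *Pmvk* and *Scd1*). The median difference of the fatty acid genes, 0.21, ranged from 0.17 to 0.63 with 1 array left out, and was 0.66 without replicate 1 of both genotypes and 0.52 with array weights. On the 4 arrays the count of 13 ranged from 0 to 14 with 1 array left out, the lone array of a genotype being assumed to vary like the others. It was 0 without knockout replicate 2 or 3, 9 without wild-type replicate 3, 11 with the replicate block and 6 adjusted over all probe sets. The median of the sterol genes ranged from 0.68 to 1.19 and that of the fatty acid genes from 0.53 to 0.65, or 0.44 with the mean of probe sets. With that mean the 4-array count was 11, with *Sc5d* added and *Elovl6*, *Fads1* and *Fdft1* no longer called. With 1 of 6 arrays left out, differences changed sign for *Tm7sf2* (−0.17 to 0.62), *Msmo1* (−0.48 to 0.44), *Nsdhl* (−0.12 to 0.51), *Sc5d* (−0.23 to 0.66), *Srebf1* (−0.23 to 0.27), *Fasn* (−0.214 to 0.0562), *Scd2* (−0.00988 to 0.408) and *Fads2* (−0.14 to 0.64). Without replicate 1 of both genotypes *Msmo1* was at 0.19 and *Fasn* at 0.042. On the 4 arrays, with 1 left out, *Msmo1* (−0.16 to 0.53), *Srebf1* (−0.25 to 0.58) and *Fasn* (−0.20 to 0.28) changed sign. These changes follow from fewer arrays or other weights; no further cause was tested.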
